A study of Ovis aries with 15 samples.

Results

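The change across birth was described in the longissimus dorsi, a long back muscle of sheep, by setting the arrays of newborn lambs against those of late fetuses. The 150 d group held 3 lambs, 1 to 3 d after birth, and the 120 d group held 3 fetuses, all of Dorset/Suffolk/Rambouillet cross-bred stock and without an experimental treatment. These were 6 of the 15 arrays of a developmental series with 3 animals at each of 80, 100, 120, 150 and 230 d. Each animal gave RNA of its dissected muscle to 1 Affymetrix bovine genome array, and no animal was sampled again at another stage. By the study's methods the 150 d lambs were males while the 120 d fetuses included a female. Birth, age and sex cannot be told apart in this comparison. The probes were designed on cattle sequence, so a low signal of sheep RNA can also come from a mismatch with the probe. A probe set, the group of probes that reads 1 transcript, was kept where its signal reached 50 on at least 3 of the 6 arrays, which left 13659 of 24016 after removal of the control probe sets. Of these, 8860 carried 1 gene symbol and named 6870 genes, each given here by its brightest probe set. The myosin isoforms and the subunits of the respiratory chain were in every fit but are not described.

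At birth a lamb loses the placental supply of glucose and lactate, begins to feed on milk rich in fat, must stand and walk, and has to hold its own body temperature. Skeletal muscle burns fuel in the mitochondria, where the tricarboxylic acid (TCA) cycle and the oxidation of fatty acids feed the respiratory chain. Fetal muscle, in contrast, is a growing tissue that expresses fetal growth factors and imprinted genes, genes transcribed from 1 parental copy, and lays down matrix, vessels and nerve contacts.

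Signals are MAS5 values on a linear scale, and a log2 fold change is the difference of the mean log2 signals, 150 d minus 120 d. The test was limma's moderated contrast in a fit over all 15 arrays, and changes with a Benjamini-Hochberg adjusted p below 0.01 count as called. Calls were made for 1985 of 13659 probe sets (14.5%), of which 793 (5.81%) had the higher signal at 150 d and 1192 (8.73%) the lower. Of the genes, 1120 (16.3%) changed, 573 higher (8.34%) and 547 lower (7.96%), and these last shares are the background for every count of genes below. The median over all genes was -0.07 on the log2 scale. The median called change was 1.29 upwards and -1.24 downwards, and 73 genes rose and 59 fell by more than 2 on the log2 scale. Further, 666 of the changed probe sets carried no single gene symbol and were not named.

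The split between higher and lower calls depended on how the arrays were scaled. With array medians set equal 885 probe sets were higher and 743 lower, and with quantile normalization 880 and 933. The hybridisation controls, bacterial RNAs added to the hybridisation mix, read 1570.4, 1145 and 1139 at 150 d, against 677, 841 and 918 at 120 d. When arrays were scaled to these controls, the median of all probe sets moved to -0.81, against -0.15 as deposited, and 173 were higher and 3958 lower. All 1192 probe sets called lower kept that call under this scaling, and 173 of the 793 called higher did. This scaling moved every log2 fold change down by the same amount, so it favoured lower calls in advance. Counts and medians under it are therefore no separate check of single genes or lists. Scaling to these controls is written "by the hybridisation controls" hereafter, and "higher" and "lower" refer to the array's own mean unless stated. The share of signal in the 100 brightest probe sets was 21.1 to 24.9% at 150 d, against 18.2 to 20.4% at 120 d, and actin read at its 3' end over its 5' end gave 0.852 to 0.953 at 150 d, against 0.933 to 1.14 at 120 d. The arrays are called N1 to N3 at 150 d and F1 to F3 at 120 d, by replicate number. Replicates correlated at 0.910 to 0.927 at 150 d, against 0.924 to 0.943 at 120 d, and N2 had the lowest median signal (51.4, against 59.5 to 68.9 on the other 5 arrays). The count of changed probe sets was 1100 without F3, 1310 without N2, and 305 when the 6 arrays were fitted alone.

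**Figure D1:**
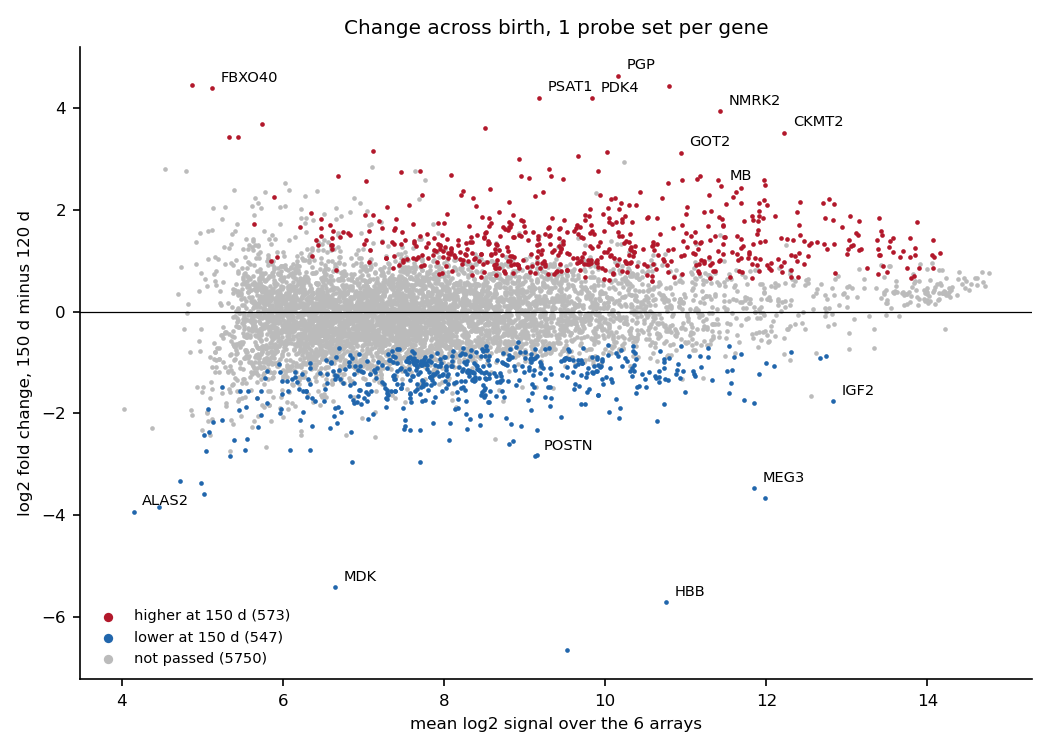
Each of 6870 genes is plotted by its mean log2 signal over the 6 arrays (x axis) and its log2 fold change, 150 d minus 120 d (y axis). The 573 genes called higher at 150 d are red, the 547 called lower are blue and the rest grey, with 14 genes labelled, PGP at 4.63 and HBB at -5.71 among them. Points without a label include the myosin genes MYL3, MYL4 and MYH8, which are not described.

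The largest rise among genes with a signal of 50 or more at both stages was that of PGP, the phosphatase that clears phosphoglycolate and glycerol 3-phosphate. Its signal was 9849.6, 4158 and 4500.2 at 150 d, against 260, 400.1 and 116 at 120 d (log2 fold change 4.63 ± 0.39, SE, adjusted p = 1.4e-05). NMRK2, the muscle kinase that turns nicotinamide riboside into the NAD precursor nicotinamide mononucleotide, read 12810.1, 12936 and 7506 at 150 d, against 794, 954 and 461 at 120 d (log2 fold change 3.93 ± 0.30, SE, adjusted p = 8.5e-06). Every newborn value of both genes lay above every fetal one, which held for 20% of all genes. CKMT2, the mitochondrial creatine kinase of sarcomeric muscle, stood at 21343, 12995 and 15296 at 150 d, against 1363, 1781 and 1169 at 120 d (log2 fold change 3.52 ± 0.25, SE, adjusted p = 8e-06). GOT2, the mitochondrial aspartate aminotransferase of the malate-aspartate shuttle, gave 6981, 5949 and 4726 at 150 d, against 1062, 652 and 428 at 120 d (log2 fold change 3.12 ± 0.29, SE, adjusted p = 1.9e-05). COQ10A, a coenzyme Q binding protein, rose by 3.05, MTFP1, a protein of mitochondrial fission, by 2.76 and MCUR1, a regulator of the mitochondrial calcium uniporter, by 2.74. MCRIP2 rose by 2.79. None of these 8 calls was lost when any single array of the 15 was left out.

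Among genes whose geometric mean was under 50 at 120 d, the change is given as a lower bound against 50. PPIF, the mitochondrial cyclophilin, read 576, 498 and 247 at 150 d, against 50.2, 28.4 and 69.9 at 120 d, a rise of at least 8.28-fold (adjusted p = 0.00021). PFKFB4, which sets the level of fructose 2,6-bisphosphate, read 309, 288 and 194 at 150 d, against 30.5, 39.6 and 55.3 at 120 d, at least 5.17-fold (adjusted p = 0.0035), and PFKFB1 of the same family rose at least 2.74-fold. FBXO40, a ubiquitin ligase subunit of muscle that acts on the insulin receptor substrate, read 198, 155 and 133 at 150 d, against 3.4, 30.6 and 4.2 at 120 d, at least 3.2-fold. Further bounds were those of TTYH1 (at least 3.83-fold), a membrane protein of the tweety family, SAA3 (3.34-fold), an acute phase protein, P2RY1 (3.2-fold), a nucleotide receptor, AGPAT2 (2.87-fold), an acyltransferase of phospholipid and triglyceride synthesis, PDXK (2.66-fold), the vitamin B6 kinase, and SCN4B (2.6-fold), a sodium channel subunit. FBXO40, PFKFB1, TTYH1, P2RY1, AGPAT2, PDXK and SCN4B read under 50 on all 3 fetal arrays, so the filter kept them through 150 d alone and they had to differ, and no p is given for them or for genes kept through 120 d alone. Of all genes, 39 were kept through 150 d alone and 76 through 120 d alone. Leaving out F3 ended the calls of PFKFB1, SAA3, AGPAT2, PDXK and SCN4B, and leaving out N2 those of PFKFB4, SAA3 and PDXK.

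**Figure D2:**
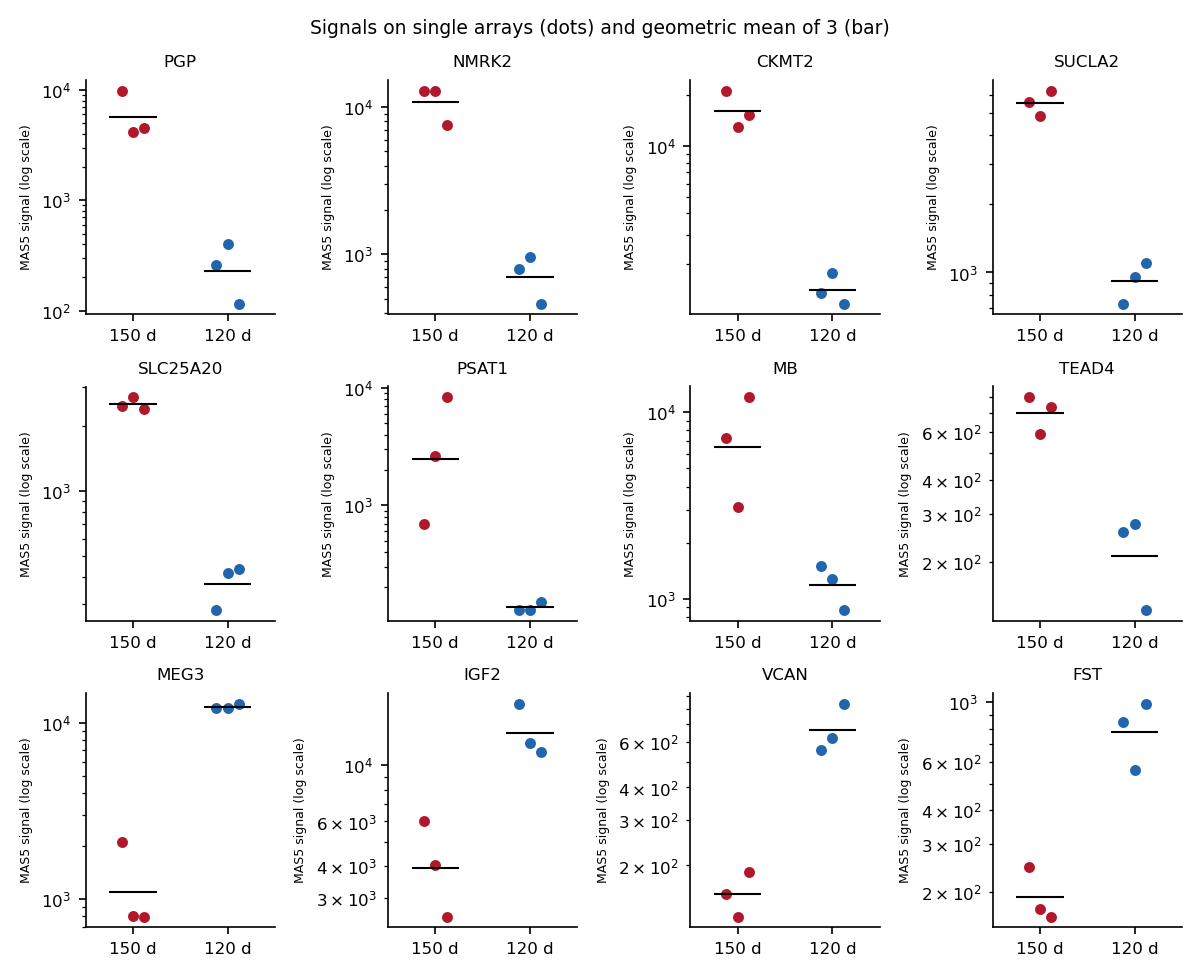
Signals of 12 genes on single arrays (log scale), with 150 d left of 120 d in each panel and a bar at the geometric mean of 3 arrays. In all 12 panels the 3 newborn values do not overlap with the 3 fetal ones, and PSAT1 spans 697 to 8374 among the newborns.

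Most of the kept enzymes of the TCA cycle, of pyruvate dehydrogenase and of the malate-aspartate shuttle rose. Of 26 kept members 17 were higher and 0 lower, with a median log2 fold change of 1.64, and 11 were higher and 0 lower by the hybridisation controls. CS, citrate synthase, read 9237, 8972 and 7266 at 150 d, against 2394, 2584 and 1949 at 120 d (log2 fold change 1.88 ± 0.22, SE, adjusted p = 8.6e-05). SUCLA2, the ATP-forming succinyl-CoA ligase, read 5614, 4851 and 6269 at 150 d, against 729, 957 and 1097 at 120 d (log2 fold change 2.60 ± 0.40, SE, adjusted p = 0.00055). IDH2, the NADP-dependent mitochondrial isocitrate dehydrogenase, rose by 2.19, PDHA1 and DLAT, subunits of pyruvate dehydrogenase, by 2.13 and 2.01. PDK4 codes for the kinase that switches pyruvate dehydrogenase off. It read 1724, 7945 and 4359 at 150 d, against 252, 179 and 216 at 120 d (log2 fold change 4.19 ± 0.40, SE, adjusted p = 2.6e-05), the largest rise in the list, while PDK2 and PDK3 gave 0.68 and -0.21 and did not pass. The mean of PDK4 was 41.7 ± 2.21 (SD, n = 3) at 80 d, 123 ± 21.1 at 100 d and 15393 ± 2398 at 230 d. This list kept at least 17 calls when any one of the 6 arrays was left out.

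Fatty acid uptake and oxidation followed, with 16 of 30 members higher and 0 lower (median 1.20). SLC25A20, the carrier of acylcarnitine across the inner mitochondrial membrane, read 2468, 2705 and 2384 at 150 d, against 280.5, 416 and 436 at 120 d (log2 fold change 2.76 ± 0.24, SE, adjusted p = 1.7e-05). FABP3, the fatty acid binding protein of heart and muscle, read 8318, 6635 and 5251 at 150 d, against 1158, 1365 and 834 at 120 d (log2 fold change 2.59 ± 0.24, SE, adjusted p = 2.1e-05), and ACADVL, the very long chain acyl-CoA dehydrogenase, rose by 2.52. UCP3, an inner membrane carrier of muscle mitochondria, read 1470.1, 1445 and 1239.8 at 150 d, against 128, 172 and 231 at 120 d (log2 fold change 3.00 ± 0.34, SE, adjusted p = 7.4e-05). ACADM and HADHB, enzymes of beta-oxidation, rose by 2.27 and 2.34, and ACSL1, which activates fatty acids, by 1.78. CD36, the fatty acid transporter, read 2968, 2760.3 and 1835 at 150 d, against 2586, 1702 and 2322 at 120 d, and LPL, which frees fatty acids from blood lipoproteins, read 437, 232 and 388 at 150 d, against 257, 203 and 614 at 120 d, and neither passed. The study turned to qRT-PCR for both, as genes that this array did not carry, did not read in sheep or could not tell from relatives, so these signals are uncertain. By qRT-PCR the study found both CD36 and LPL strongly up-regulated across this interval. CPT1B, the rate-limiting entry step, rose by 1.19, but the call of CPT1B was lost without N1, N2, F1, F2 or F3. The count of members higher was 11 without F2 or F3 and 6 by the hybridisation controls.

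Breakdown of ketone bodies and branched-chain amino acids held calls in both directions. Of 20 members 4 were higher and 2 lower, with a median of 0.12. BCKDK, the kinase that inhibits the branched-chain keto acid dehydrogenase, rose (909, 1136 and 766 at 150 d, against 311, 273 and 223 at 120 d, log2 fold change 1.80, adjusted p = 0.00013), and PPM1K, the phosphatase that reverses it, fell (137, 103 and 112 at 150 d, against 319, 271 and 467 at 120 d, log2 fold change -1.56, adjusted p = 0.004). The opposite moves of this kinase and phosphatase pair were both past the test, although that of PPM1K was lost without N2, N3, F1 or F3. MCCC1, a subunit of the leucine-pathway carboxylase, fell by 1.36 on the log2 scale, and PCCB, a subunit of propionyl-CoA carboxylase, rose by 1.41. The count higher was 2 without F1, F2 or F3, and the median was -0.54 by the hybridisation controls, with 1 higher and 4 lower.

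Among genes that build mitochondria the calls were upwards. Mitochondrial ribosomal proteins had 22 of 66 members higher and 0 lower (median 0.89), among them MRPL35 (1.87), MRPL12 (1.84) and MRPL37 (1.77). Protein import, chaperones and proteases had 16 of 37 higher and 0 lower (median 0.98). IMMT and CHCHD3, which shape the cristae, rose by 2.24 and 1.76, SAMM50, which inserts proteins into the outer membrane, by 1.57, and HSPA9, the chaperone of the matrix, by 1.49. TIMM23, the channel of the inner membrane, read 143, 147 and 109 at 150 d, against 57.9, 44 and 28.7 at 120 d, at least 2.64-fold higher. Both counts moved with single arrays, to 11 ribosomal and 6 import members without F3 and likewise without N2, and by the hybridisation controls they were 2 and 0 higher and 0 lower. By contrast, of 14 kept regulators of mitochondrial and oxidative gene expression none passed in either direction with limma (median 0.14, and -0.51 by the hybridisation controls, under which 3 were lower). PPARGC1A, the coactivator that drives mitochondrial biogenesis, read 444, 515 and 297 at 150 d, against 478, 456 and 526 at 120 d (log2 fold change -0.25, adjusted p = 0.42), and its newborn and fetal values overlapped. PERM1, a muscle regulator downstream of it, read 531, 203 and 188 at 150 d, against 82.7, 65.3 and 98.3 at 120 d (log2 fold change 1.75 ± 0.63, SE, adjusted p = 0.054), and SIRT1, an NAD-dependent deacetylase, read 76.1, 181 and 136 at 150 d, against 316, 309 and 411 at 120 d (log2 fold change -1.47 ± 0.43, SE, adjusted p = 0.023). Neither pair of groups overlapped, and neither gene passed. The study placed SIRT1 in its cluster of genes that fell in this interval alone, and it reported good agreement of qRT-PCR and array for SIRT1.

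**Figure D3:**
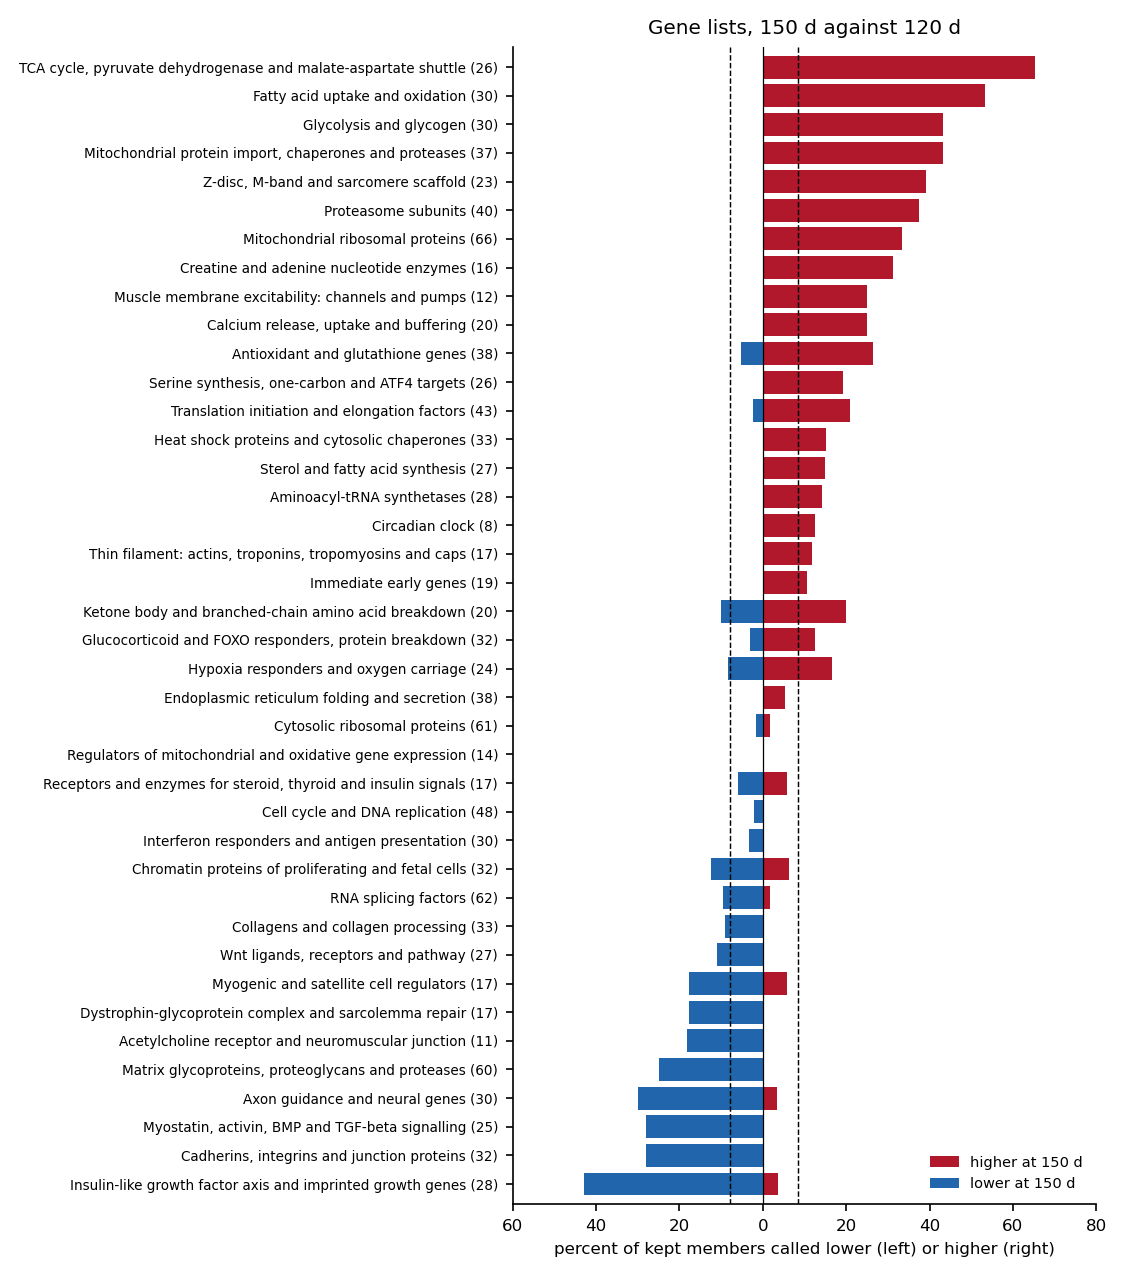
For each of 40 gene lists the bar to the right gives the percent of kept members called higher at 150 d and the bar to the left the percent called lower, with the number of kept members beside the name. Dashed lines mark the background over 6870 genes, 8.34% higher and 7.96% lower, and by the hybridisation controls the counts shift towards lower (11 of 26 TCA members still higher, 0 of 40 proteasome members).

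The synthesis of serine from a glycolytic intermediate runs through PHGDH, PSAT1 and PSPH. PSAT1 read 697, 2657 and 8374 at 150 d, against 128, 129 and 149.8 at 120 d (log2 fold change 4.21 ± 0.60, SE, adjusted p = 0.00034), and its other kept probe sets gave 3.20 and 4.22. PSPH read 592, 1063 and 3262 at 150 d, against 106, 99.1 and 109.8 at 120 d (log2 fold change 3.60 ± 0.46, SE, adjusted p = 0.00018). The spread among newborns was wide in both, with replicate 1 lowest and replicate 3 highest, while the 3 fetuses lay close together. PHGDH, the first step, read 184, 497 and 560.1 at 150 d, against 10.5, 112 and 116 at 120 d and did not pass (log2 fold change 2.85 ± 0.79, SE, adjusted p = 0.018). The 230 d lambs averaged 59.7 ± 8.01 for PSAT1 and 143 ± 37.1 for PSPH (SD over 3 arrays). Of the 26 kept genes of serine synthesis, one-carbon metabolism and targets of the stress factor ATF4, 5 were higher and 0 lower, with a median of 0.47. By the hybridisation controls the median turned to -0.19, with 2 higher and 2 lower. The same newborn order was seen in SARS1, which charges tRNA with serine (1981, 3038 and 4880 at 150 d, against 657, 223 and 293 at 120 d, log2 fold change 3.14 ± 0.47, SE, adjusted p = 0.00048), in GARS1 for glycine (653, 1136 and 1991 at 150 d, against 401, 487 and 376 at 120 d) and in AARS1 for alanine (975, 1544 and 1806 at 150 d, against 592, 496 and 467 at 120 d). Other genes described below had this newborn order too, among them PGK1, ANKRD1, GPX3, FOS and GLRX2, and also CDH11, which fell. The share of this order over all genes was not counted. Of 28 aminoacyl-tRNA synthetase genes 4 were higher and 0 lower (median 0.48, and -0.18 by the hybridisation controls, with 1 higher and 1 lower). SLC3A2, a subunit of amino acid exchangers, read 242, 235 and 579.7 at 150 d, against 131, 148 and 93.8 at 120 d. ATF4 itself read 4466, 3890.3 and 7478 at 150 d, against 3546, 2422 and 2804 at 120 d and did not pass (adjusted p = 0.028). The serine count was 2 without N3, F1, F2 or F3, the synthetase count was 2 without N2, F2 or F3, and calls were lost for GARS1 without N2, N3, F1, F2 or F3 and SLC3A2 without N3, F1, F2 or F3. When the 6 arrays were fitted alone, 0 of the 26 serine genes and 0 of the 28 synthetase genes were called. PSAT1, PSPH and SARS1 thus had no call in that fit.

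Calls among translation factors and the proteasome were mostly upwards. Translation factors had 9 of 43 members higher and 1 lower (median 0.41), with ETF1 and GSPT1, the release factors, at 1.23 and 1.17 and PABPC4, a poly(A) binding protein, at 1.00. The member that fell was EIF2S3, a subunit of the initiation factor that brings the first tRNA (-0.87), and calls were lost for EIF2S3 and RPS6 without each of the 6 arrays in turn and RPL37 without N1, N2, F1, F2 or F3. Of 61 cytosolic ribosomal proteins 1 was higher, RPS6 (0.65, and -0.01 by the hybridisation controls), and 1 lower, RPL37 (34, 57.7 and 60.4 at 150 d, against 153, 102 and 99.7 at 120 d). The geometric mean of RPL37 at 150 d was under 50, so the size of its fall is uncertain. The median of the 61 ribosomal proteins was 0.36, and it turned to -0.21 with quantile normalization and -0.30 by the hybridisation controls, with 0 higher and 2 lower by these controls. Proteasome subunits and chaperones had 15 of 40 higher and 0 lower (median 0.67). PSMB5, a catalytic subunit, read 2271, 2847 and 2509 at 150 d, against 1323, 1033 and 759 at 120 d (log2 fold change 1.32 ± 0.24, SE, adjusted p = 0.0014) and PSMG2, an assembly chaperone, read 4699, 4666 and 4118 at 150 d, against 1859.5, 1830.5 and 1647 at 120 d (log2 fold change 1.34 ± 0.15, SE, adjusted p = 7.7e-05). The proteasome count was 7 without N2 or F3, 8 without F2 and 9 without F1 and 0 by the hybridisation controls, where the median was 0.02. The count of translation factors higher was 4 without F2 or F3, and its median turned to -0.25 by the hybridisation controls, with 0 higher and 2 lower.

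Glycolysis and glycogen metabolism had 13 of 30 members higher and 0 lower (median 0.81). GPD1, the cytosolic glycerol 3-phosphate dehydrogenase, read 7708, 4637 and 5564 at 150 d, against 832, 1080.1 and 876 at 120 d (log2 fold change 2.66 ± 0.24, SE, adjusted p = 1.7e-05). PGK1, phosphoglycerate kinase, read 5602, 10547 and 16224 at 150 d, against 930.4, 2311 and 2034 at 120 d (log2 fold change 2.59 ± 0.48, SE, adjusted p = 0.0018). PYGM, the muscle glycogen phosphorylase, read 27440.2, 14994 and 20939 at 150 d, against 5606, 5950.5 and 5586 at 120 d (log2 fold change 1.84 ± 0.23, SE, adjusted p = 0.00014), GYG1, the primer of glycogen, rose by 1.40, and SLC16A3, a lactate exporter, by 1.48. FBP2, the muscle fructose bisphosphatase, rose by 2.43, and the call of FBP2 was lost without each of the 6 arrays in turn. SLC2A1, the glucose transporter of fetal tissues, gave -0.48 and the liver and brain phosphorylases PYGL and PYGB -0.46 and -0.80 without passing. Of the creatine and adenine nucleotide enzymes 5 of 16 were higher and 0 lower (median 0.43, and -0.22 by the hybridisation controls, with 2 higher and 2 lower). ADSL and ADSS1, of the purine nucleotide cycle, rose by 2.10 and 1.68, AK1, adenylate kinase, by 1.28 and GAMT, which makes creatine, by 1.37. CKM, the cytosolic muscle creatine kinase, read 43896, 26575 and 34384 at 150 d, against 23137, 19596 and 17398 at 120 d and did not pass (log2 fold change 0.78, adjusted p = 0.013), while CKB, the brain form, gave -1.19 without passing. The glycolytic count was 12 of 29 without PFKFB1, which was kept through 150 d alone, and 6 higher and 1 lower by the hybridisation controls. It was 9 without F3, 10 without F1 or N3, and 9 with quantile normalization, where the median was 0.51. The creatine and nucleotide count was 3 without F2 or F3, and calls were lost for ADSS1 without N1, N3, F1, F2 or F3 and GAMT without F2 or F3.

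Among the contractile genes other than the myosins, thin filament genes held few calls. TMOD4 and TMOD1, caps of the pointed end, rose by 1.50 and 1.07, the 2 calls among 17 members (median 0.52, and -0.13 by the hybridisation controls, with 0 higher and 2 lower). ACTA1, the skeletal actin, read 32292, 20848 and 27904 at 150 d, against 18906, 19919.9 and 16191 at 120 d (adjusted p = 0.12). By qRT-PCR the study found alpha-actin strongly higher after birth. Z-disc and scaffold genes had 9 of 23 higher and 0 lower (median 0.80). CRYAB, a small heat shock protein of the Z-disc, read 11233, 19133 and 12634 at 150 d, against 6555, 2659 and 1816 at 120 d (log2 fold change 2.14 ± 0.47, SE, adjusted p = 0.005). LDB3, a Z-disc adaptor, rose by 1.58 and FHL1, a LIM domain protein, by 1.40. This count was 1 without F3, 2 without N3 and 3 without F2, 3 with quantile normalization and 0 higher and 1 lower by the hybridisation controls. Calls were lost for CRYAB without N2, N3, F2 or F3 and FHL1 without N3 or F3. ANKRD1, a stretch-responsive protein, read 1233, 4220.4 and 6992 at 150 d, against 651, 714 and 176 at 120 d and did not pass (log2 fold change 2.93 ± 0.77, SE, adjusted p = 0.013), while its dimmer kept probe set gave 3.81 and passed (adjusted p = 0.0027). Calcium handling had 5 of 20 higher and 0 lower (median 0.64, and -0.02 by the hybridisation controls, with 0 higher and 0 lower). ATP2A2, the slow calcium pump of the sarcoplasmic reticulum, read 19914, 16349 and 21495 at 150 d, against 8133, 7492 and 6542 at 120 d (log2 fold change 1.38 ± 0.17, SE, adjusted p = 0.00013). ATP2A1, the fast pump, read 22604, 16110 and 22095 at 150 d, against 9515, 9680.3 and 7437 at 120 d (log2 fold change 1.18 ± 0.19, SE, adjusted p = 0.00085). PLN, the inhibitor of the slow pump, read 1462, 2661 and 2569 at 150 d, against 943, 572 and 783 at 120 d (log2 fold change 1.52 ± 0.32, SE, adjusted p = 0.0036). Pump and inhibitor were both higher in the newborns, although calls were lost for PLN without N2, N3, F2 or F3 and TMOD1 without N1, N2 or F3. The thin filament count was 1 without N2 or F3, and the calcium count was 3 without N2 or F3.

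Genes of the muscle surface were divided. CA14, a membrane carbonic anhydrase, read 1204, 3492 and 998 at 150 d, against 202, 321 and 255 at 120 d (log2 fold change 2.66 ± 0.38, SE, adjusted p = 0.00033) and ATP1B1, a subunit of the sodium pump, rose by 0.96, which with SCN4B made 3 calls among 12 genes of excitability (median 0.03, and -0.62 by the hybridisation controls, with 2 higher and 0 lower), a count that was 1 without F3 and 2 of 10 without the members kept through 150 d alone, SCN4B being one. The dystrophin complex and its partners had 0 of 17 higher and 3 lower (median -0.46, and -1.11 by the hybridisation controls, with 0 higher and 12 lower). LAMA4 and LAMB1, laminin chains, gave -1.33 and -1.15, and SGCE, epsilon-sarcoglycan, read 669.6, 519 and 712 at 150 d, against 1240.3, 1377 and 1676 at 120 d (log2 fold change -1.18 ± 0.17, SE, adjusted p = 0.00042). At the neuromuscular junction 0 of 11 were higher and 2 lower (median -0.79, and -1.45 by the hybridisation controls, with 0 higher and 5 lower), LAMB2, the synaptic laminin chain, at -1.04 and SYNE1, a nuclear anchor, at -0.79, a count that was 0 without N2, N3, F2 or F3 and 1 without N1 or F1. CHRNG, the fetal subunit of the acetylcholine receptor, read 26.2, 25.8 and 33.9 at 150 d, against 81.6, 111 and 63 at 120 d, and CHRNE, the adult subunit, read 343, 199 and 326 at 150 d, against 306, 153 and 179 at 120 d. Neither passed. CHRNG was kept through 120 d alone, so its groups had to differ, and without it 2 of 10 junction genes were lower. Among the others, calls were lost for ATP1B1 without N2, F1 or F3, LAMA4 without N2, N3 or F1 and LAMB1 without N2 or F3.

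The oxygen store of muscle and several antioxidant enzymes were higher. MB, the oxygen store myoglobin, read 7324, 3125 and 12069 at 150 d, against 1499, 1271 and 867 at 120 d (log2 fold change 2.46 ± 0.38, SE, adjusted p = 0.00056). Of 24 hypoxia responders 4 were higher, MB, PGK1, LDHA and EGLN3, and 2 lower, KDM3A and MXI1 (median -0.32, and -0.98 by the hybridisation controls, with 2 higher and 9 lower). HIF1A read 2293, 2201 and 2658 at 150 d, against 2635, 2817 and 2963 at 120 d and VEGFA 5037, 3619 and 6049.6 at 150 d, against 5888, 6078 and 5194 at 120 d, with groups that overlapped. Antioxidant and glutathione genes had 10 of 38 higher and 2 lower (median 0.44, and -0.22 by the hybridisation controls, with 2 higher and 6 lower). NQO1, a quinone reductase, read 1247, 412 and 543 at 150 d, against 119, 179 and 113 at 120 d (log2 fold change 2.28 ± 0.41, SE, adjusted p = 0.0014), GLRX2, the mitochondrial glutaredoxin, read 786, 797 and 855 at 150 d, against 166, 335 and 163 at 120 d (log2 fold change 1.96 ± 0.29, SE, adjusted p = 0.00043) and GPX3, the plasma glutathione peroxidase, read 337, 503 and 801 at 150 d, against 119, 128 and 163 at 120 d (log2 fold change 1.92 ± 0.29, SE, adjusted p = 0.00054). The mitochondrial members PRDX3 and SOD2 rose by 1.46 and 1.38. GPX7 and GSTA4, further antioxidant enzymes, were lower, with log2 fold changes of -1.42 and -1.03. Heat shock proteins had 5 of 33 higher and 0 lower (median 0.47, and -0.19 by the hybridisation controls, with 0 higher and 3 lower). DNAJB5 and HSPB6 rose by 2.23 and 2.02, while the inducible HSPA1A gave -0.42 and did not pass. The antioxidant count higher was 5 without F1 and 6 without F3 and the count lower 0 without F3 and 1 without N1, the counts of hypoxia responders were 2 without F3 for higher and 0 without N3 or F3 and 1 without N1, N2, F1 or F2 for lower, and calls were lost for SOD2 without N2, F1 or F3, PRDX3 without N3 or F1, GPX7 without F3 and GSTA4 without N1, N2 or F3.

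Several imprinted and fetal growth genes fell. MEG3, an imprinted noncoding RNA, read 2099, 809 and 796 at 150 d, against 12094, 12076 and 12793 at 120 d (log2 fold change -3.48 ± 0.34, SE, adjusted p = 3.1e-05). DLK1, the paternally expressed gene of the same locus, read 2604, 1466 and 1666 at 150 d, against 5726, 5838 and 7135 at 120 d (log2 fold change -1.74 ± 0.27, SE, adjusted p = 0.00057), and its other kept probe set gave -0.44 without passing. IGF2, the fetal insulin-like growth factor, read 6001, 4049.6 and 2531 at 150 d, against 17438, 12236 and 11252 at 120 d (log2 fold change -1.76 ± 0.29, SE, adjusted p = 0.00092). No newborn value of IGF2 reached the lowest fetal one, a separation seen downwards in 23% of all genes, and the mean at 230 d was 908 ± 192 (SD, n = 3). CDKN1C, a maternally expressed cell cycle inhibitor, read 2291, 1492 and 2284 at 150 d, against 7966, 5666 and 7174 at 120 d (log2 fold change -1.79 ± 0.22, SE, adjusted p = 0.00015), MEST, a paternally expressed hydrolase, read 858, 1008 and 863 at 150 d, against 2909, 2979 and 3709.7 at 120 d (log2 fold change -1.81 ± 0.19, SE, adjusted p = 5.6e-05), and IGF2R, which clears IGF2, read 1732, 2097 and 2049 at 150 d, against 4841, 3974 and 4441 at 120 d (log2 fold change -1.17 ± 0.17, SE, adjusted p = 0.00031). IGF2 and its clearing receptor both fell. In the list of 28 members 12 were lower and 1 higher (median -0.96, and -1.62 by the hybridisation controls, with 0 higher and 16 lower). Also lower were PEG3 (-1.21), SGCE, NDN (-0.74) and the binding proteins IGFBP3, IGFBP4 and IGFBP6 (-0.86, -0.97 and -1.17). The member that rose was NNAT, neuronatin (1.05), and PEG10 read 320, 109 and 134 at 150 d, against 369, 442 and 5258 at 120 d without passing. IGF1, the postnatal factor, read 320.4, 159 and 243 at 150 d, against 315, 238 and 182 at 120 d and did not pass. The count of members lower was 7 without F2 or F3, and calls were lost for PEG3 without N2, N3, F2 or F3, NDN without N1, N3, F2 or F3, IGFBP3 without N1, N3, F1, F2 or F3, IGFBP4 without N1, F1, F2 or F3, IGFBP6 without N2, F2 or F3 and NNAT without N1, N3, F1 or F3.

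**Figure D4:**
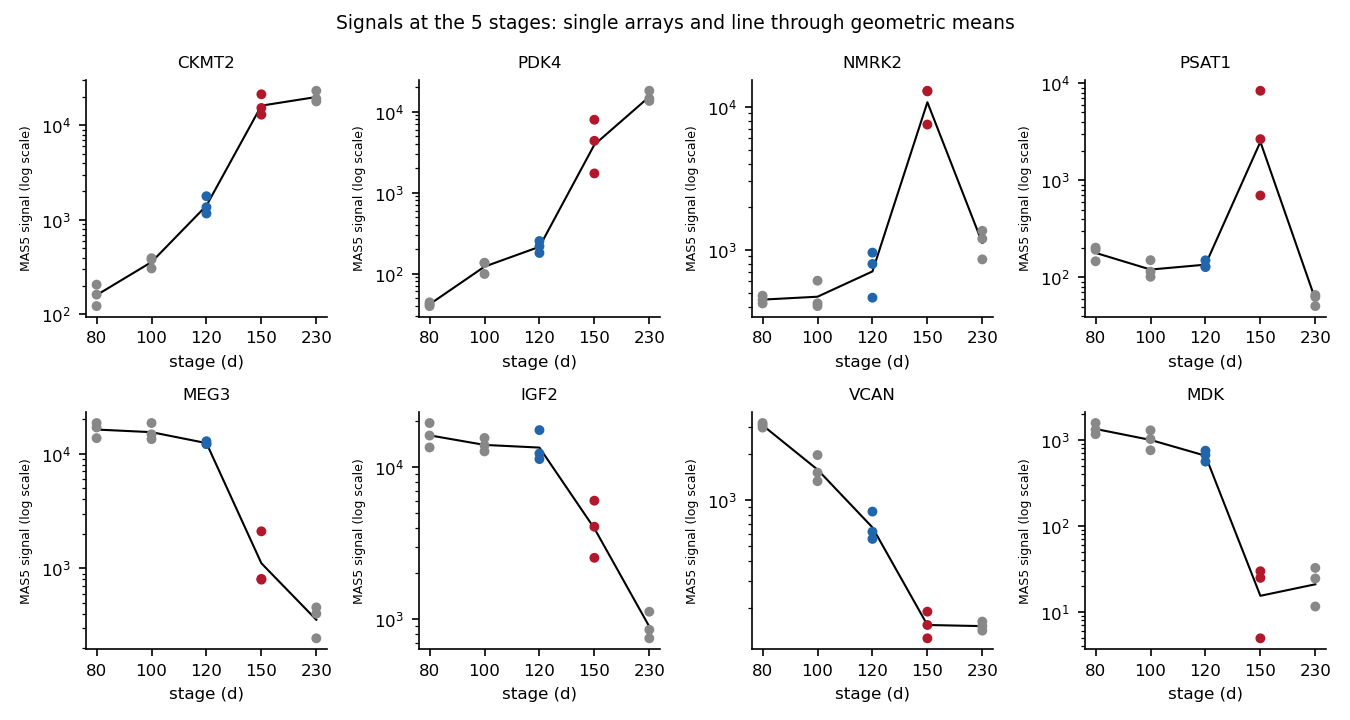
Signals of 8 genes on all 15 arrays (log scale) in order of stage, with a line through the geometric means. CKMT2 and PDK4 stay high at 230 d, NMRK2 and PSAT1 are high at 150 d and lower again at 230 d (PSAT1 59.7 on average), and MEG3, IGF2, VCAN and MDK are lower at 150 d and 230 d than at the fetal stages.

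Myostatin, activin and TGF-beta signalling had 7 of 25 members lower and 0 higher (median -0.59, and -1.25 by the hybridisation controls, with 0 higher and 11 lower). MSTN, myostatin, the inhibitor of muscle growth, read 169, 78.1 and 152 at 150 d, against 331, 566 and 429 at 120 d (log2 fold change -1.78 ± 0.38, SE, adjusted p = 0.004), and FST, follistatin, which binds and blocks it, read 247, 173 and 162 at 150 d, against 847, 564 and 988 at 120 d (log2 fold change -2.03 ± 0.28, SE, adjusted p = 0.00027). Ligand and antagonist were both lower in the newborns. TGFBR2, the type II receptor of TGF-beta, read 444, 385 and 510.1 at 150 d, against 1533, 1314 and 1872 at 120 d (log2 fold change -1.81 ± 0.30, SE, adjusted p = 0.00089). Also lower were ACVR1, a type I receptor (-1.21), SMAD2, the signal transducer (-1.05), LTBP1, which stores the ligand (-1.06), and TGFBI, a matrix protein induced by it (-1.29). The 3 TGF-beta ligands themselves did not pass (TGFB1 -1.10, TGFB2 -0.56, TGFB3 -1.31). The call of MSTN was lost without N2, F2 or F3, and the list kept at least 5 calls without any one of the 6 arrays.

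Calls among matrix genes were downwards, and the main fibrillar collagens did not pass. Glycoproteins, proteoglycans and proteases had 15 of 60 members lower and 0 higher (median -0.73, and -1.39 by the hybridisation controls, with 0 higher and 34 lower). GPC4, a glypican that holds growth factors at the cell surface, read 154, 170.1 and 159.5 at 150 d, against 883, 688 and 698 at 120 d (log2 fold change -2.22 ± 0.22, SE, adjusted p = 3.4e-05). GPC3, of the same family, read 860.3, 668 and 755 at 150 d, against 3322, 3736 and 3087 at 120 d (log2 fold change -2.16 ± 0.18, SE, adjusted p = 1.2e-05). VCAN, versican, a proteoglycan of provisional matrix, read 155, 127 and 189 at 150 d, against 559.8, 623 and 842 at 120 d (log2 fold change -2.10 ± 0.21, SE, adjusted p = 3.6e-05). POSTN, periostin, read 259, 65.6 and 535 at 150 d, against 1000, 1265 and 2683 at 120 d (log2 fold change -2.85 ± 0.64, SE, adjusted p = 0.0055), and the call of POSTN was lost without N1, N2, F2 or F3. FN1, fibronectin, and ASPN, asporin, were lower too (-1.64 and -2.07). Of 33 collagens and their processing enzymes 3 were lower and 0 higher (median -0.51, and -1.16 by the hybridisation controls, with 0 higher and 16 lower). This share, 9.09%, was near the background. COL21A1 read 221, 148 and 181 at 150 d, against 934, 1077 and 1334 at 120 d (log2 fold change -2.61 ± 0.24, SE, adjusted p = 1.9e-05), COL15A1, of vessel and muscle basement membranes, read 2429, 1537 and 1334 at 150 d, against 6662, 4768 and 4316 at 120 d (log2 fold change -1.59 ± 0.24, SE, adjusted p = 0.00043), and COL4A1, of basement membranes, fell by 1.22. COL1A1 read 15149.9, 8149 and 15730.2 at 150 d, against 9604, 15530.2 and 15674 at 120 d, and its groups overlapped. COL3A1 read 17502, 13185 and 21097 at 150 d, against 24428, 20720.1 and 19829 at 120 d, with overlap too, and passed as lower with quantile normalization (-1.06). The matrix count was 8 without N2 or F3.

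Calls among adhesion, guidance and Wnt genes were mostly downwards. Cadherins, integrins and junction proteins had 9 of 32 lower and 0 higher (median -0.68, and -1.33 by the hybridisation controls, with 0 higher and 17 lower), led by CDH11, a cadherin of mesenchymal cells (169, 228 and 240.2 at 150 d, against 919.8, 913 and 867 at 120 d, log2 fold change -2.10 ± 0.19, SE, adjusted p = 1.8e-05). JAM3, a junctional adhesion molecule, and CLDN11, a claudin, gave -1.56 and -1.75. Axon guidance and neural genes had 9 of 30 lower and 1 higher (median -0.70, and -1.35 by the hybridisation controls, with 0 higher and 16 lower). MDK, the heparin-binding growth factor midkine, read 29.6, 4.9 and 24.8 at 150 d, against 751, 560.5 and 669.7 at 120 d, a fall of at least 13.1-fold. PTN, pleiotrophin, its family relative, read 330.2, 175 and 653 at 150 d, against 827, 1072 and 2022 at 120 d (log2 fold change -1.86 ± 0.45, SE, adjusted p = 0.0085). SEMA6A and SEMA6D, semaphorins, gave -2.11 and -1.82, and NTN4, a netrin, -1.71. Of 27 Wnt genes 3 were lower and 0 higher (median -0.53, and -1.19 by the hybridisation controls, with 0 higher and 14 lower), TCF7L2, a transcription factor of the pathway (-1.28), SFRP1, a secreted antagonist (-1.15), and TLE1, a corepressor. The share of Wnt genes called lower, 11.1%, was near the 7.96% over all genes. With array medians set equal 1 Wnt and 5 neural genes were lower. The members MDK and EFNA5 of the neural list and ALCAM and VCAM1 of the adhesion list were kept through 120 d alone, and without them the counts lower were 7 of 28 neural and 7 of 30 adhesion genes. The neural count lower was 3 without N2, F2 or F3, the adhesion count was 4 without F3 and 5 without N2 or F1, and the Wnt count was 0 without F2 and 1 without F3. Among single genes, calls were lost for PTN without N1, N2, F2 or F3, CLDN11 without N1, N2, F1 or F3 and NTN4 without N2, N3, F2 or F3.

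Other falls outside these lists were large. LRIG3, a leucine-rich repeat membrane protein, read 83.4, 52.4 and 95.2 at 150 d, against 483, 615 and 658 at 120 d (log2 fold change -2.96 ± 0.23, SE, adjusted p = 8.5e-06). PRXL2B, a thioredoxin-fold enzyme of prostaglandin synthesis, read 235, 244 and 169 at 150 d, against 1593, 1448 and 1498 at 120 d (log2 fold change -2.82 ± 0.18, SE, adjusted p = 3e-06). GAB1, an adaptor of growth factor receptors, read 249.8, 144 and 196 at 150 d, against 898, 915 and 1736 at 120 d (log2 fold change -2.55 ± 0.28, SE, adjusted p = 6.6e-05). In each of these 3 genes the newborn values lay below the fetal range, as they did in 23% of all genes. RGN, a calcium-binding protein, read 115, 71.8 and 75.1 at 150 d, against 405, 453 and 431 at 120 d (log2 fold change -2.33 ± 0.23, SE, adjusted p = 3.5e-05), and the earlier fetuses averaged 2548 ± 57.8 at 80 d and 1409.5 ± 51.1 at 100 d (SD over 3 arrays). Lower as well were APOA1, the apolipoprotein of high density lipoprotein (-2.52), MARCKSL1, an actin regulator (-2.33), OLFML3, a secreted matrix protein (-2.31), RASGRP2, an exchange factor of Rap1 (-2.31), and LRRC17 (-2.33). LMO2, a cofactor of blood and endothelial development, gave -2.25 and ZNF470 -2.38, and the calls of both were lost without N2, F1 or F3. With a geometric mean under 50 at 150 d were PLD3 (at least 6.46-fold lower), TTYH2 (3.51-fold), ANGPT4, an angiopoietin (2.25-fold), and TACC3, a spindle protein (1.68-fold). ANGPT4 and TACC3 were kept through 120 d alone. The other bounds of this kind were 2.05-fold for BEND5, 1.67-fold for LOC508098, 2.17-fold for DCAF4 and 1.71-fold for TMSB15B, of which LOC508098, DCAF4 and TMSB15B were kept through 120 d alone, and calls were lost for BEND5 without N2, N3, F1, F2 or F3 and DCAF4 and TMSB15B without N1, N2, F1, F2 or F3.

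Markers of cell types other than the fibre changed unevenly, and in this bulk RNA fewer cells of a type and less RNA per cell cannot be told apart. The fibre markers of the labelled tissue were bright on every array, with a summed signal over 10 markers of 190773 to 284929 at 150 d, against 123571 to 155883 at 120 d. Of these 10, 3 were higher and 0 lower (median 0.72, and 0.12 with quantile normalization). By the hybridisation controls the median was 0.06, with 1 higher and 0 lower. Endothelial markers had 6 of 13 lower and 0 higher (median -1.28, and -1.93 by the hybridisation controls, with 0 higher and 10 lower). CDH5, the endothelial cadherin, read 709, 299 and 556 at 150 d, against 1308, 1522 and 1252 at 120 d (log2 fold change -1.47 ± 0.26, SE, adjusted p = 0.0014), PECAM1 read 2048, 966 and 1474 at 150 d, against 3074, 3594 and 3746 at 120 d (log2 fold change -1.28 ± 0.23, SE, adjusted p = 0.0014), and TIE1, an angiopoietin receptor family member, read 153, 98.4 and 101 at 150 d, against 407, 310.5 and 468 at 120 d (log2 fold change -1.76 ± 0.24, SE, adjusted p = 0.00025). Their summed signal was 2782 to 4971 at 150 d, against 7424 to 8513 at 120 d. ENG, also endothelial, read 491, 296 and 366 at 150 d, against 376, 328 and 351 at 120 d and FLT1, a receptor of VEGF, read 153, 130.5 and 224 at 150 d, against 114, 158 and 182 at 120 d. Neither passed. The endothelial count was 3 without F2, and 0 when the 6 arrays were fitted alone. The part that these cells had in the falls of COL15A1, COL4A1, LMO2 and ANGPT4 was not tested.

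**Figure D5:**
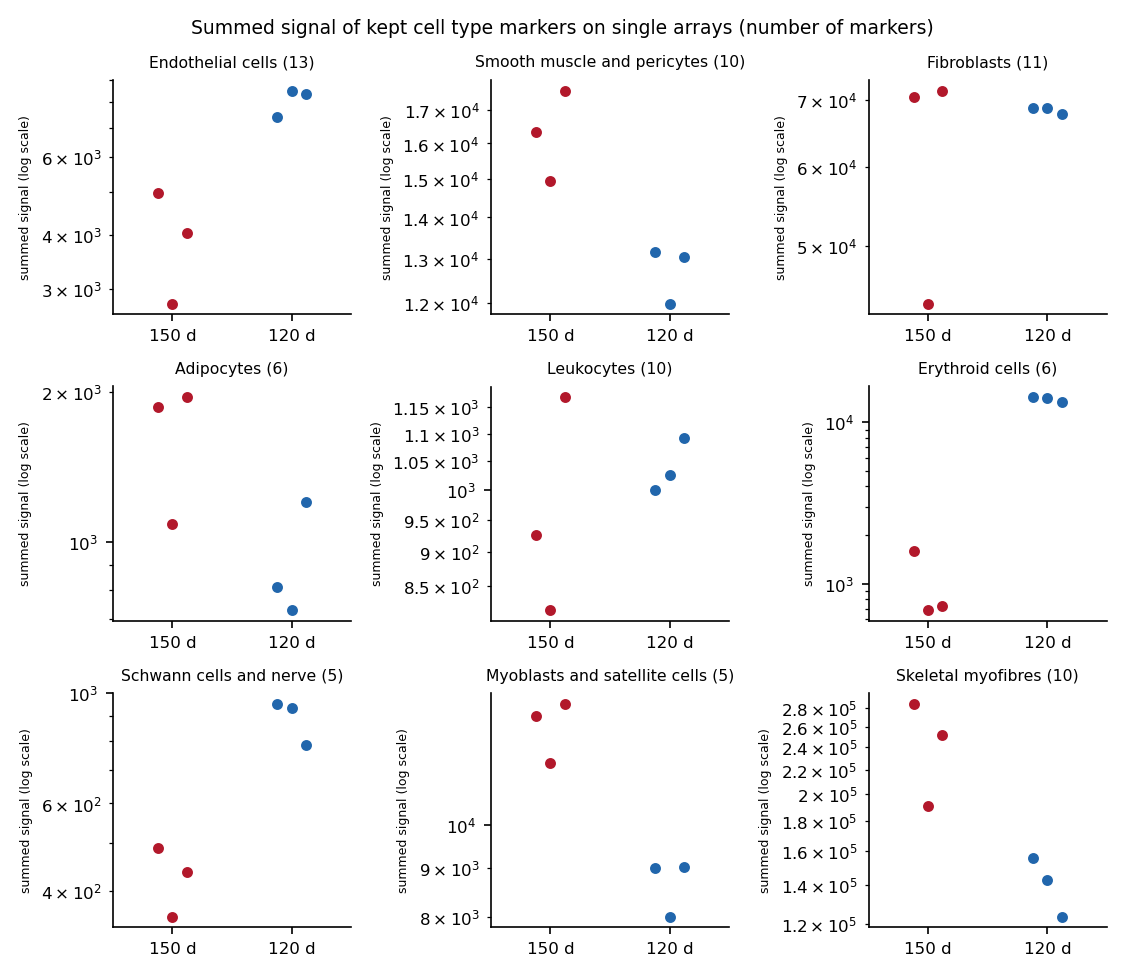
Summed signal of the kept markers of 9 cell types on single arrays (log scale), 150 d left of 120 d in each panel. The newborn sums lie below the fetal ones for endothelial, erythroid and Schwann markers and above them for fibre, smooth muscle and satellite cell markers, and they overlap for adipocyte, leukocyte and fibroblast markers. Most of the fetal erythroid sum came from HBB. The fibre, smooth muscle and satellite cell lists share the gene DES. Most members of the last 2 lists were negative, with medians of -0.28 for 10 smooth muscle and -0.45 for 5 satellite cell markers.

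The largest fall of a described gene was that of a red cell transcript. HBB, a beta-globin chain, read 348, 209 and 190 at 150 d, against 12778, 12623 and 12244 at 120 d (log2 fold change -5.71 ± 0.48, SE, adjusted p = 1.3e-05), with other kept probe sets at -8.64 and -0.10. HBG, a fetal globin, read 684, 264 and 249 at 150 d, against 1217, 1286 and 998 at 120 d (log2 fold change -1.71 ± 0.39, SE, adjusted p = 0.0065), and ALAS2, the erythroid enzyme of heme synthesis, was kept through 120 d alone and read 5.6, 3 and 5.6 at 150 d, against 95.7, 58 and 60.8 at 120 d, at least 1.39-fold lower. The probe sets of the globins may read each other's transcripts, and HBA read 176, 59 and 57.1 at 150 d, against 103, 128 and 46.4 at 120 d, with overlapping groups. CA2, a carbonic anhydrase of red cells that other tissues also express, rose by 1.23, and calls were lost for CA2 without N1, N3, F1, F2 or F3 and HBG without N2, N3, F1, F2 or F3. The summed erythroid signal was 684 to 1591 at 150 d, against 13426 to 14309 at 120 d. Most of the fetal sum on each array came from the 1 probe set of HBB, so the sums mainly restate its fall. Fibroblast markers had 2 of 11 lower, POSTN and THY1, and sums of 43804 to 71562 at 150 d, against 67800.1 to 68741 at 120 d. Leukocyte markers had 0 of 10 called in limma, with sums of 815.5 to 1170 at 150 d, against 999 to 1091 at 120 d. S100B, a marker of Schwann cells, fell by 1.56 on the log2 scale as 1 of 5. Smooth muscle markers had 1 of 10 lower, KCNJ8 (-1.23), and the call of KCNJ8 was lost without each of the 6 arrays in turn, and satellite cell markers had 0 of 5 called in limma. By qRT-PCR the study found MYF5, a gene of the satellite cell list, strongly down-regulated across this interval. Of 6 adipocyte markers FABP4 was higher (994, 521 and 637 at 150 d, against 83.2, 81 and 182 at 120 d, log2 fold change 2.69 ± 0.52, SE, adjusted p = 0.0023), and ADIPOQ, adiponectin, read 63.4, 114 and 522 at 150 d, against 22.9, 9.4 and 91.8 at 120 d without passing, and the call of FABP4 was lost without N1, F1 or F2. Of 3 kept sex-linked transcripts 0 were called in limma.

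Calls among genes of proliferation and the nucleus were few. Cell cycle and replication genes had 1 of 48 lower, RFC4 (-0.70), and 0 higher, with a median of -0.68 and 7 positive values. The count lower was 14 without N1, 0 without any other one of the 6 arrays, and 22 by the hybridisation controls. CDK1, the mitotic kinase, read 109.8, 51.1 and 32.6 at 150 d, against 83.5, 106 and 105 at 120 d and overlapped. Chromatin proteins had 4 of 32 lower and 2 higher (median -0.33, and -0.99 by the hybridisation controls, with 0 higher and 14 lower). HMGN2, a nucleosome binding protein, read 1965, 1967 and 1659 at 150 d, against 4456, 5080 and 5169 at 120 d (log2 fold change -1.40 ± 0.15, SE, adjusted p = 6.3e-05). HMGB2, a DNA bending protein, read 1346, 708 and 684 at 150 d, against 2118, 2253 and 3027 at 120 d (log2 fold change -1.49 ± 0.25, SE, adjusted p = 0.00092), while HDAC1 and HMGA1 rose by 1.02 and 1.17. Splicing factors had 6 of 62 lower and 1 higher (median -0.23, and -0.88 by the hybridisation controls, with 0 higher and 23 lower), with PRPF3 at -1.57 and RBM5 at -1.31. CELF1, which sets splice choices of muscle transcripts, rose by 1.30. The splicing count lower was 3 without F3, the chromatin count lower 2 without F2 or F3 and 7 without N1, and calls were lost for HDAC1 and HMGA1 without N1, N2, F2 or F3.

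Regulators of muscle identity and hormone signals held few calls. Of 17 myogenic and satellite cell regulators 3 were lower and 1 higher (median -0.39, and -1.05 by the hybridisation controls, with 0 higher and 7 lower). MYOD1 read 321, 119 and 185 at 150 d, against 256, 167 and 156 at 120 d and MYOG 612, 559.9 and 402 at 150 d, against 935, 599 and 628 at 120 d, and both pairs of groups overlapped. TEAD4, which acts on muscle promoters, read 802, 585 and 739 at 150 d, against 256, 275 and 133 at 120 d (log2 fold change 1.74 ± 0.33, SE, adjusted p = 0.0019), MEOX2, a homeobox factor, read 187, 186 and 256 at 150 d, against 408, 469 and 551 at 120 d (log2 fold change -1.19 ± 0.23, SE, adjusted p = 0.0023), and TCF12 and TCF3, the partners of MYOD1, gave -0.88 and -0.76. Of 17 receptors and enzymes for hormones 1 was higher, NR4A1, an orphan receptor (1.56), and 1 lower, NCOA1, a coactivator of steroid receptors (1051, 755 and 966 at 150 d, against 2196, 2201 and 2079 at 120 d, log2 fold change -1.24 ± 0.17, SE, adjusted p = 0.00026). NR3C1, the glucocorticoid receptor, read 1119, 1165 and 1314 at 150 d, against 1387, 2023 and 2395 at 120 d and did not pass. Of 32 genes that respond to glucocorticoid or FOXO 4 were higher and 1 lower (median 0.17, and -0.48 by the hybridisation controls, with 3 higher and 8 lower). USP2, a deubiquitinase, read 2358, 2881 and 1803 at 150 d, against 486, 602 and 424 at 120 d (log2 fold change 2.21 ± 0.30, SE, adjusted p = 0.00025) and CEBPB, a transcription factor, read 326, 249 and 319 at 150 d, against 94.2, 92.5 and 97.8 at 120 d (log2 fold change 1.64 ± 0.30, SE, adjusted p = 0.0017), with PDK4 and FBXO40 the other rises and MSTN the fall. Without the members kept through 150 d alone, FBXO40 among them, 3 of 30 were higher. The myogenic count lower was 1 without N2 or F3, and calls were lost for MEOX2 without N2 or F3, TCF3 without N2, N3, F1, F2 or F3 and NR4A1 without F3.

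The remaining lists held few calls. Of 19 immediate early genes 2 were higher and 0 lower, against 0 higher and 2 lower by the hybridisation controls (median 0.31, and -0.35 by these controls). The rises were SRF (195, 157 and 203 at 150 d, against 69.4, 54.6 and 64.3 at 120 d, log2 fold change 1.56 ± 0.29, SE, adjusted p = 0.002) and NR4A1, and FOS read 206, 388 and 1887 at 150 d, against 125, 65.6 and 84.2 at 120 d without passing (adjusted p = 0.063). Of 8 clock genes HLF alone was higher (1.19), and the call of HLF was lost without each of the 6 arrays in turn. Sterol and fatty acid synthesis had 4 of 27 higher and 0 lower (median 0.24, and -0.42 by the hybridisation controls, with 1 higher and 2 lower). CYP51A1, FDPS and HMGCS1, of cholesterol synthesis, rose by 1.64, 1.12 and 0.96, and ME1, which supplies NADPH, by 1.91. Endoplasmic reticulum genes had 2 of 38 higher, SSR3 (0.81) and SPCS1 (0.66), with a median of 0.01 (-0.65 by the hybridisation controls, with 0 higher and 5 lower). Of 30 interferon and antigen presentation genes IFIT5 alone was lower (-1.19). The sterol count was 2 without N1, N2 or F3, the count of the endoplasmic reticulum was 0 without N2 or F3 and 1 without N1, F1 or F2, and calls were lost for HMGCS1 without N1, N2, F1 or F3 and FDPS without N1, N2 or F3.

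Genes read by several probe sets allowed a check within the array. Of the 287 changed genes with more than 1 kept probe set, 253 had all of them in 1 direction, 70 had all past the test in 1 direction, and 0 had a probe set past the limma test the other way. Among the genes described here 64 changed and had more than 1 kept probe set. In 41 of these another probe set did not pass, and in 5 of them, LDHA, TGFBR2, RGN, TTYH2 and ADSS1, another one had the opposite sign. Of the 1985 changed probe sets, 954 (48.1%) kept their call in all 15 fits that left out 1 array.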

How the data were processed

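RNA of sheep longissimus dorsi from 5 stages, 3 animals each, was read on 15 Affymetrix bovine genome arrays, and the animals of each stage were taken as its replicates. The deposited values are MAS5 signals, a brightness (intensity) per probe set on a linear scale that the authors corrected for background and scaled to a common mean on each array. The arrays' number limits the precision.

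Control probe sets (112) were removed, signals were taken to log2 (values under 0.1 set to 0.1, which touched 0 kept values), and a probe set stayed in where 3 or more of the 6 arrays of 150 d and 120 d read at least 50. A filter of this kind keeps some probe sets through 1 stage alone, 107 through 150 d and 233 through 120 d. The contrast 150 d minus 120 d was fitted with limma 3.58.1 in R 4.3.3 over all 15 arrays, which share 1 estimate of the spread, with Benjamini-Hochberg adjustment over all kept probe sets, and the fit was tested on simulated data. Tables and plots were made in Python 3.11.15. Standard errors and tests rest on a spread between animals that was pooled over all stages and moderated across probe sets. They do not give the spread of the 6 animals compared, which can be wider for a single gene.

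Gene names came from the platform's annotation, and 13292 probe sets carried 1 symbol, 86 several and 10638 none. Of these, 14 symbols were updated through RefSeq. A gene was read by its brightest probe set. Named genes were the 15 largest rises and falls past the test whose groups did not overlap, the 10 largest each way with 1 stage under 50 (given as a bound, the mean of the brighter stage over 50), up to 4 members of each gene list in each direction, and members whose role defines a list. Members and lists were chosen with earlier results of these data known. Further members are named beside their counts, and these were chosen after their values were seen. Markers and lists were described by counts and medians only. The alternatives tried were 4 other scalings, an offset, 3 other filters, fewer arrays, another variance model, threshold and statistic, the median over a gene's probe sets, a replicate block and leaving out single arrays.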

Additional observations from a re-analysis of the deposited data

How the results depend on the processing

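Signal near the background limited what could be read, and a fold change against a stage under 50 is a bound. Against 1985 changed probe sets (793 higher, 1192 lower), an adjusted p under 0.05 gave 3725 (1431 higher, 2294 lower), the moderated F-statistic over the 4 intervals 3462 (1341 and 2121), the 6 arrays alone 305 (160 and 145), no filter on low signals 1110 (471 and 639), and scaling to the hybridisation controls 4131 (173 and 3958). With array medians set equal 743 were lower. Leaving out 1 array of the 15 gave 1100 to 1992 changed, 474 to 782 higher and 626 to 1217 lower probe sets, with the fewest in each case without 120 d replicate 3. The other settings, quantile normalization, scaling without the 100 brightest, the offset of 16, the stricter filter, the filter on the mean and the trend and robust options, gave 1813 to 2401 changed. Replicate numbers did not pair the animals (correlations of deviations 0.07, -0.04 and 0.06 for equal numbers), and the fit with a replicate block gave 2028 changed probe sets (807 higher, 1221 lower), and of 231 named genes 8 lost and 3 gained a call. For 6 arrays alone 133 of the 231 kept their direction but lost their call. In this fit 12 of 26 TCA, 4 of 30 fatty acid and 4 of 30 glycolysis members were higher, against 0 of 40 proteasome members. Matrix genes had 4 of 60 lower and endothelial markers 0 of 13.

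Some genes with a small change turned in sign. Scaling to the hybridisation controls, to equal medians or without the 100 brightest moves all log2 signals of an array by the same amount. With arrays scaled to the hybridisation controls the log2 fold change was -0.12 for ACTA1, -0.47 for CD36, -0.19 for CHRNE, -0.56 for ENG, -0.51 for FLT1, -0.56 for LPL, -0.63 for MYOD1 and -0.0062 for RPS6, the only one of these with a call. With quantile normalization it was -0.044 for ACTA1, -0.015 for CD36, 0.17 for HBA and 0.14 for IGF1. With array medians set equal it was 0.036 for COL1A1, 0.11 for HBA and 0.079 for IGF1, and without the 100 brightest 0.013 for HBA. Leaving out 1 array gave both signs for COL1A1 (-0.32 to 0.22), ENG (-0.094 to 0.27), FLT1 (-0.071 to 0.32), HBA (-0.55 to 0.28), IGF1 (-0.28 to 0.22), LPL (-0.22 to 0.57) and MYOD1 (-0.34 to 0.38). The cause of the turns with quantile normalization or with 1 array left out was not tested.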
